A study of Mus musculus with 8 samples.

Results

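The plasma membrane amino acid transporters of the Slc1, Slc3, Slc6, Slc7, Slc36, Slc38 and Slc43 families were described in whole mouse kidneys with and without a Six2Cre-driven deletion of Mta2, a subunit of the nucleosome remodelling and deacetylase complex NuRD. Members were taken by gene symbol alone, and 62 of the 23219 genes in the table matched the symbols of the 7 families. The control group held 4 kidneys of genotype Mta2flx/flx, in which both Mta2 alleles carry loxP sites and no Cre was named. The mutant group held 4 kidneys of genotype Six2Cre Mta2flx/flx, so the floxed alleles were shared by both groups and the Cre transgene, which controls lacked, differed together with the deletion. All kidneys were taken at 2 months. Six2 is active in the progenitor cells that form the nephron epithelium, whereas collecting duct, stroma, vessels and blood cells arise from other lineages and remain in a whole kidney. The labels do not state that each kidney came from its own animal, so the p-values reflect only how much the samples varied, which may be partly technical. Each library is named by its group and title number.

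Amino acids filtered at the glomerulus are recovered almost completely by the proximal tubule. Carriers in the brush border take them from the urine into the cell, and a second set of carriers in the basolateral membrane passes them on to the blood. Many of these carriers are pairs: a light chain of the Slc7 family, which forms the transport path, is held at the membrane by a heavy chain, Slc3a1 (rBAT) or Slc3a2 (4F2hc). Loss of Slc3a1 or Slc7a9 causes cystinuria, and in people loss of SLC6A19 causes Hartnup disorder. The symbol rule also takes genes that are not amino acid carriers of the plasma membrane. These include Slc7a6os, a neighbour of Slc7a6 that encodes no carrier, the monoamine carriers Slc6a2, Slc6a3 and Slc6a4, the creatine carrier Slc6a8, the nucleobase carrier Slc43a3, and Slc36a1, Slc38a7 and Slc38a9, which act mainly at the lysosome.

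The promoters of 3 members are shown because their genes stand for the pairing of heavy and light chains and for a carrier covered in only some of the mutant kidneys. Each runs 250 bases up to the transcription start, on the gene's own strand, 5′ to 3′, from RefSeq on GRCm38.p6. Slc3a1 lies at chr17:85028097-85028346 (plus strand), its light chain Slc7a9 at chr7:35448842-35449091 (plus strand) and the cystine-glutamate exchanger Slc7a11 at chr3:50443614-50443863 (minus strand). Capitals mark the motifs found on either strand.
Slc3a1: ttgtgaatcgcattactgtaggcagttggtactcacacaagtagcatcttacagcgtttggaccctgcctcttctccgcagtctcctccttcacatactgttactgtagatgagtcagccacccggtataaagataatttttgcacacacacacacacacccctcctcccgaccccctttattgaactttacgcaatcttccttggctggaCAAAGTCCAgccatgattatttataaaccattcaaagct
Slc7a9: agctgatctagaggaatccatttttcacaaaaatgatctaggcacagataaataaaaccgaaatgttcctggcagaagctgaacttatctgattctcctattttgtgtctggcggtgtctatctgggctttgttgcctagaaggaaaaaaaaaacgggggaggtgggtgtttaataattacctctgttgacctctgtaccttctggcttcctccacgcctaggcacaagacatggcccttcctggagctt
Slc7a11: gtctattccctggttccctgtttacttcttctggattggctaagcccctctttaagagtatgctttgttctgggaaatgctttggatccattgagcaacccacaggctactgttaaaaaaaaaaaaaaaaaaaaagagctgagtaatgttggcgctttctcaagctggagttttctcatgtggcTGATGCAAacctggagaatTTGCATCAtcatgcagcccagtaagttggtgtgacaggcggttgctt
The motifs searched were CAAAGTCCA, of the type bound by the proximal tubule regulator HNF4, the HNF1 core GTTAAT and TTGCATCA, the amino acid response element through which Atf4 acts. The Slc3a1 window held CAAAGTCCA from position -39, counted back from the start site, a motif in 0.384% of 32851 promoters. In the Slc7a11 window TTGCATCA stood once on each strand, at -66 and -47, against 0.791% of promoters with at least 1 match. None of the 3 motifs was in the Slc7a9 window. Slc7a9 has 2 promoter entries, of which 1 is shown. Its window lies inside the gene as GENCODE places it, from 35448796 on, so the absence describes this window only. Of 44 member genes with a promoter entry, 1 held the HNF4 type, 5 the HNF1 core, which 6.43% of promoters held, and 2 the response element (Slc7a11 and Slc7a7). A match describes letters in the window and shows no binding.

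Values are given as BPM, the bases of coverage assigned to a gene per 1000000 bases assigned to all genes. Libraries held 164 to 468 megabases, and small RNA genes took 15.9% to 34.3% of the bases in controls, 26.4% and 25.9% in mutants 3382 and 3489, and 48.0% and 52.6% in mutants 3387 and 3487. A larger small RNA share leaves less for every other gene, and the median gene had a log2 fold change (mutant over control) of -0.23. Fold changes are therefore also given for many members after median scaling, which sets the median level of the genes outside the small RNA classes to the same value in each library. Mta2 had 49.0, 35.1, 67.9 and 52.4 BPM in controls 3401, 3486, 3586 and 3587, and 52.6, 33.1, 14.3 and 48.9 in mutants 3382, 3387, 3487 and 3489. These overlapped (log2 fold change -0.56, limma adjusted p = 0.857), and the coverage of the floxed exons alone is not resolved by a value per gene.

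Of the 62 members, 41 were tested, having at least 1 BPM in 4 or more libraries, and 38 had coverage in all 8 libraries. Among the other 21, 9 had no coverage in any library, among them Slc1a6, Slc36a3, Slc38a8, Slc6a11, Slc6a5, Slc7a10, Slc7a14 and Slc7a3. Several of these are known mainly from brain, such as the glycine carrier Slc6a5. The remaining 12 were covered in some libraries, with 3.92 BPM as the highest single value (Slc7a5 in mutant 3489). One tested member passed the threshold, an adjusted p below 0.05 by limma with Benjamini-Hochberg adjustment over all 13054 tested genes. Slc7a12 was higher in mutants, where 0.0766% of all tested genes were called higher. No member was called lower, against 0.0306% of all tested genes. At an unadjusted p below 0.05 there were 2 members, Slc7a12 and Slc6a19, and 6.33% of tested genes. Median scaling gave the same single call, with 0.398% of genes called higher and 0.0536% lower. So did leaving out mutants 3387 and 3487, with 0.344% of genes called higher and 0.0547% lower.

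Levels of members are ranked per kilobase of exon, whereas ratios of partners and shares of summed levels use BPM without division by length. In controls the highest was Slc7a13 with 385 BPM per kb, followed by its heavy chain Slc3a1 with 363, Slc6a18 with 135, Slc7a7 with 75.6, Slc6a19 with 65.6 and Slc7a9 with 42.9. All but Slc7a7 are brush border carriers or their heavy chain, and Slc7a7 serves the basolateral side. Slc7a12 moved from rank 26 of the members in controls (2.46 BPM per kb) to rank 4 in mutants (60.8), while Slc7a13, Slc3a1 and Slc6a18 held ranks 1, 2 and 3 in both groups.

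**Figure D1:**
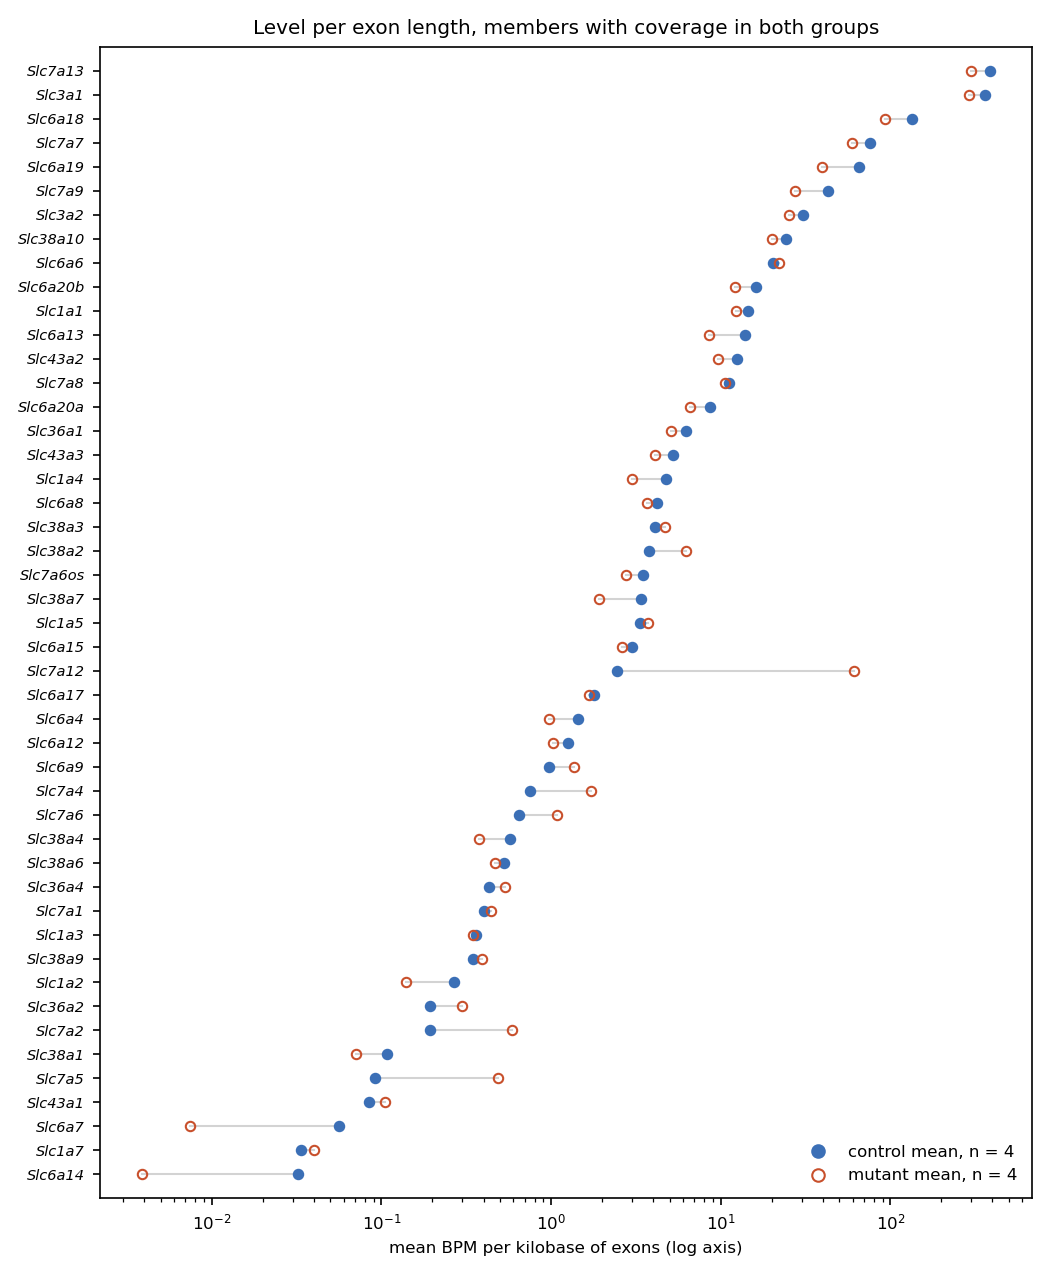
Mean level of each of the 47 members covered in both groups, in BPM per kb of exon on a log axis, for control (filled) and mutant (open) kidneys, 4 libraries each. Slc7a12 goes from 2.46 to 60.8, while Slc7a13 and Slc3a1 lead in both groups.

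Slc7a12 (Asc-2), a carrier of small neutral amino acids related to the light chains, was the member that changed. It lies on chromosome 3 from 14480697 to 14505830 in GRCm38, plus strand. Controls 3401, 3486, 3586 and 3587 had 0.725, 3.68, 1.55 and 11.2 BPM, and mutants 3382, 3387, 3487 and 3489 had 85.8, 73.6, 94.3 and 169.7. The lowest mutant stood above the highest control by more than the whole range of the controls. The means were 4.28 ± 4.76 and 106 ± 43.4 BPM (SD, n = 4 each), a log2 fold change of 4.67 with SE 0.51 and a 95% interval of 3.60 to 5.74 (limma adjusted p = 7.7e-05). After median scaling it was 4.84 (adjusted p = 0.00015). An exact 2-sided permutation test of its log2(BPM + 1) gave p = 0.0286, the smallest that 4 against 4 allows. Any gene with its groups fully apart gets this value, so the test adds nothing beyond the separation itself. The authors' deposited table gives a ratio of 24.7 and an unadjusted p of 0.0035.

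Slc7a12 and Slc7a13 are close relatives within the Slc7 family. Slc7a13 (AGT1), a carrier of aspartate, glutamate and cystine that pairs with Slc3a1 in the last segment of the mouse proximal tubule, did not pass the test. Its controls had 875, 887, 789 and 744 BPM and its mutants 435, 607, 662 and 839, which overlapped (log2 fold change -0.41, SE 0.30, adjusted p = 0.857, and -0.19 after median scaling). Per kb of exon, Slc7a12 stood at 0.102%, 0.51%, 0.242% and 1.85% of Slc7a13 in the controls. In the mutants it stood at 24.2%, 14.9%, 17.5% and 24.9%. Of the 50-base stretches of Slc7a12 exons 0.224% occur in any other gene, and of Slc7a13 exons 0.574%. The gene sharing most of them was Gm38311 for Slc7a12 and AC154200.1 for Slc7a13. Read lengths are unknown, so the share of reads that could be misassigned was not measured.

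In mouse kidney Slc7a12 is known to be higher in females and Slc7a13 in males. The labels used here name no sex. The Y-linked genes Ddx3y, Eif2s3y, Kdm5d and Uty were covered in all 8 libraries, Ddx3y at 23.6 to 53.4 BPM in controls and 15.4 to 36.8 in mutants, and Xist, expressed from the inactive X, was at 0 to 0.447 BPM in controls and 0 to 1.56 in mutants. All 8 libraries therefore had the male pattern of these genes. Of 9 genes listed as higher in female kidney, 9 were tested and 1 was called, Slc7a12 itself. Of these 4 were positive and 5 negative, with a median of -0.07. Prlr, Hao2 and Acot3 were picked after their values were seen, and the rest of the list is given after them. The prolactin receptor Prlr had 2.81, 1.48, 9.99 and 4.61 BPM in controls and 51.6, 23.1, 10.003 and 85.3 in mutants. Its log2 fold change was 2.75 (adjusted p = 0.0696), and after median scaling the adjusted p was 0.00249. The peroxisomal oxidase Hao2, also listed as higher in females, lay the other way, at 300.5 to 1045 BPM in controls and 121 to 288 in mutants (log2 fold change -1.66, adjusted p = 0.102), and Acot3 was at -1.61 (adjusted p = 0.684). The other positive genes were Cyp4a14 at 1.87 (limma adjusted p = 0.478) and Abcc3 at 1.36 (limma adjusted p = 0.553). For Abcc3 every mutant lay above every control, and for Cyp4a14 the groups overlapped. The other negative genes, Gsta4, Slc22a29 and Slc22a27, were at -0.07, -0.15 and -0.52. Of 14 genes listed as higher in male kidney, Slc7a13 among them, none was called with limma. A negative fold change was found for 13 of the 14, beside 71.5% of all tested genes. The median of the list was -0.41 beside -0.23 for all genes, and after median scaling -0.19 beside -0.03.

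**Figure D2:**
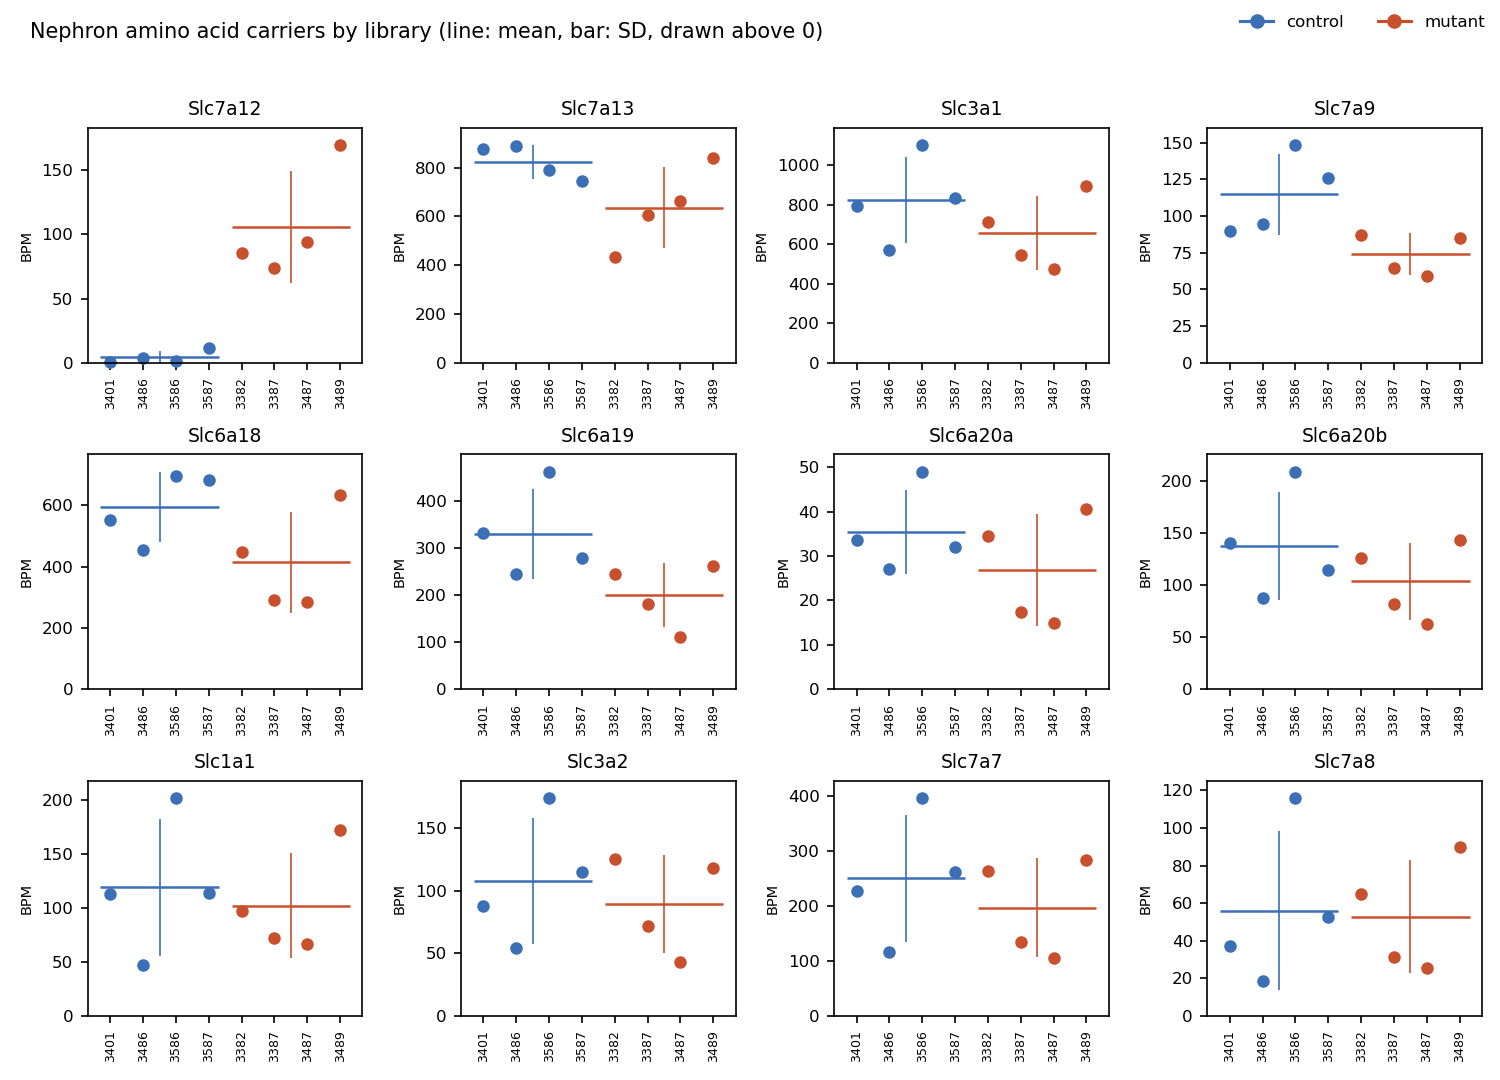
BPM in every library for 12 members, control and mutant kidneys side by side, with the group mean (line) and SD (bar). Only the Slc7a12 panel has groups apart by more than their spread, 4.28 ± 4.76 against 106 ± 43.4, while the Slc7a9 groups lie apart without passing the test.

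The brush border group held 9 members, of which 8 were tested and none was called. All 8 had a negative fold change, from -0.75 to -0.15, with a median of -0.44 beside -0.23 for all tested genes. After median scaling 7 of the 8 were negative and the median was -0.22 beside -0.03. Among all tested genes 71.5% were negative, and 53.5% after median scaling. Without mutants 3387 and 3487, the libraries of highest small RNA share, Slc1a1 (0.29), Slc6a20a (0.11) and Slc6a20b (0.0383) were positive. Slc3a1 was then at -0.0064, and Slc7a9, Slc7a13, Slc6a18 and Slc6a19 stayed negative, beside a median of 0.23 for all genes. In bulk kidney, fewer cells of a type and less RNA per cell cannot be told apart. Of 23 proximal tubule markers none passed the test by limma, and 21 were negative with a median of -0.43, or -0.21 after median scaling. Their summed level was 68113 to 76413 BPM in controls and 46306 to 68510.2 in mutants, none of them at 0 in all libraries, but 66.3% of the control sum was the androgen-regulated gene Kap. Without Kap the sum was 17580 to 32080 BPM in controls and 19118, 15475, 13219 and 23089 in mutants 3382, 3387, 3487 and 3489. Their part in the carriers' values was not tested.

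Slc7a9 (b0,+AT), the light chain that takes up cystine and cationic amino acids, had 89.8, 94.7, 148 and 126 BPM in controls and 87.3, 64.3, 58.9 and 85.0 in mutants. Every mutant lay below every control, by a narrow margin between mutant 3382 and control 3401. That was the single member with mutants below controls, a pattern held by 3.4% of all tested genes. Slc7a12 was the single one with mutants above, a pattern held by 0.889%. The log2 fold change of Slc7a9 was -0.62 (SE 0.31, 95% interval -1.27 to 0.03, adjusted p = 0.806), and after median scaling it was -0.40 and the groups overlapped. The authors' deposited table gives an unadjusted p below 0.05 for Slc7a9 (0.039), Slc6a13 (0.045) and Slc7a12, 3 of the 62 members, and for 4.5% of all genes.

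Slc3a1, the heavy chain of Slc7a9 and Slc7a13, had 793, 569, 1102 and 832 BPM in controls and 713, 547, 473 and 895 in mutants. The groups overlapped (log2 fold change -0.33, adjusted p = 0.891, and -0.11 after median scaling), and 24.8% of its 50-base stretches also lie in the neighbouring gene Prepl or elsewhere. The BPM ratio of Slc7a9 to Slc3a1 within a library was 0.141 ± 0.0228 in controls and 0.115 ± 0.0136 in mutants. It was the smallest p among 6 ratios of partners (exact permutation p = 0.114, adjusted 0.686). The ratio of Slc7a13 to Slc3a1 had p = 0.83 by the same exact test.

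The sodium-coupled carriers of neutral amino acids Slc6a18 (B0AT3) and Slc6a19 (B0AT1) are neighbours on chromosome 13 and reach the brush border with the help of collectrin, here Tmem27. Slc6a19 had 331, 245, 461 and 278 BPM in controls and 244, 181, 111 and 261 in mutants. Mutants 3382 and 3489 fell within or next to the control range, while 3387 and 3487, the libraries of highest small RNA share, lay below it. After median scaling the mutants had 179.7, 251, 191 and 202 against 245 to 326 in controls, so that 3387 was the one inside the control range. The log2 fold change was -0.75 (SE 0.33, unadjusted p = 0.0353, adjusted p = 0.757), and -0.53 after median scaling (adjusted p = 0.504). Slc6a18 had 551, 455, 695 and 680.5 BPM in controls and 448, 291, 284 and 632 in mutants, with overlap (log2 fold change -0.58, adjusted p = 0.828, and -0.36 after median scaling). Tmem27 itself had 1825 to 2000.3 BPM in controls and 1290.3 to 1545 in mutants (log2 fold change -0.43, adjusted p = 0.857). The ratio of Slc6a19 to Tmem27 gave an exact permutation p of 0.486, and that of Slc6a18 to Tmem27 0.714.

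The proline carrier Slc6a20a and its relative Slc6a20b are adjacent copies on chromosome 9. Slc6a20a had 33.7, 27.0, 49.0 and 32.0 BPM in controls and 34.5, 17.3, 15.03 and 40.6 in mutants, and Slc6a20b had 140.1, 87.2, 209 and 114 in controls and 126, 82.1, 62.8 and 143 in mutants. Both overlapped, with log2 fold changes of -0.47 and -0.41, or -0.26 and -0.19 after median scaling. Of their 50-base stretches 26.7% and 27.9% occur in other genes. Of the 1102 shared stretches of Slc6a20a 631 lie in Slc6a20b, whereas of the 2432 of Slc6a20b 1752 lie in Sacm1l. How reads were split among these genes is uncertain. Slc1a1 (EAAC1), the glutamate and aspartate carrier, had 113, 47.5, 202 and 114 BPM in controls and 97.3, 71.8, 67.0 and 172 in mutants. Its groups overlapped (log2 fold change -0.15, adjusted p = 0.952, and 0.07 after median scaling), and 31.0% of its stretches lie in other genes.

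**Figure D3:**
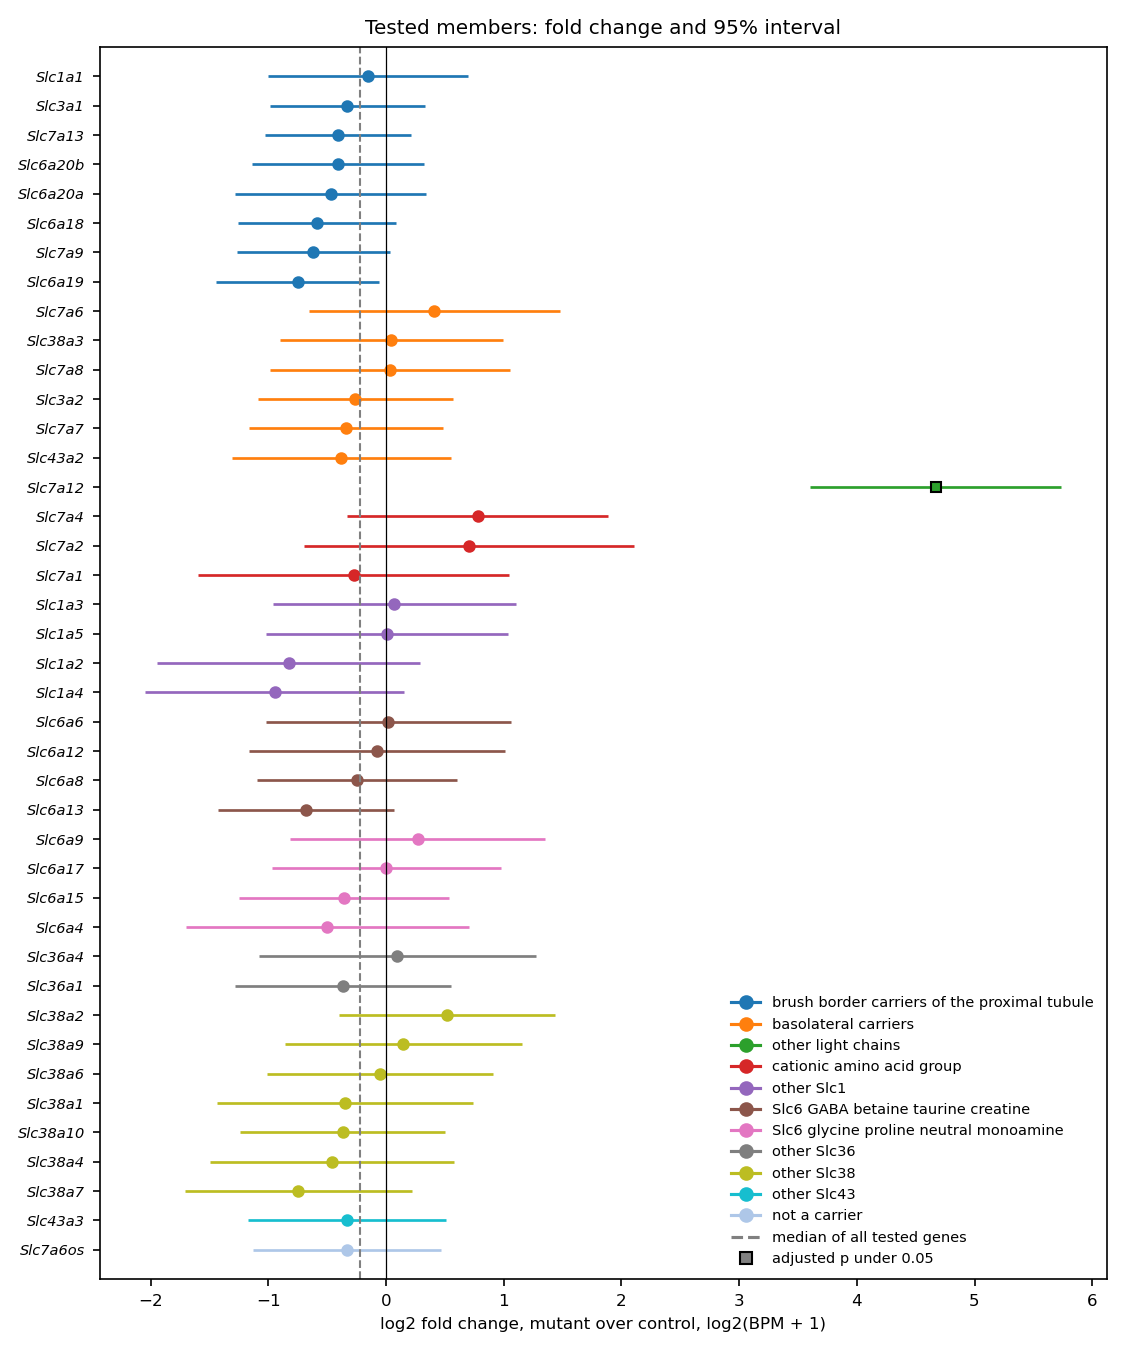
Log2 fold change (mutant over control) with its 95% interval for the 41 tested members, ordered by role, where the dashed line is the median of all tested genes (-0.23) and a square marks an adjusted p below 0.05. Slc7a12 at 4.67 is the only square, and the 8 brush border members run from -0.75 to -0.15.

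Basolateral members were 6, all tested, with none called. Of these 3 were positive and 3 negative, from -0.38 to 0.41 with a median of -0.11, or 0.11 after median scaling. Slc3a2, the heavy chain here, had 87.6, 54.6, 174 and 115 BPM in controls and 126, 71.5, 43.4 and 118 in mutants (log2 fold change -0.26, adjusted p = 0.920, and -0.04 after median scaling). Its light chain Slc7a7 (y+LAT1), which passes cationic amino acids to the blood and whose loss in people causes lysinuric protein intolerance, had 228, 116, 396 and 263 BPM in controls and 264, 135, 105 and 284 in mutants. These ranges overlapped (log2 fold change -0.34, adjusted p = 0.900, and -0.12 after median scaling). Slc7a8 (LAT2), an exchanger of neutral amino acids, had 36.9, 18.3, 116 and 52.8 BPM in controls and 64.7, 31.4, 25.2 and 89.7 in mutants. Controls alone spanned a wider range than mutants, and the log2 fold change was 0.04 with a 95% interval of -0.99 to 1.06, and 0.25 after median scaling. The glutamine carrier Slc38a3, known for feeding ammonia formation, had means of 21.7 ± 8.25 and 24.8 ± 17.0 BPM (log2 fold change 0.05).

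Light chains outside these 2 membranes were sparse apart from Slc7a12. Slc7a10 was listed at 0 in all 8 libraries. Slc7a11 (xCT), which takes up cystine for glutathione synthesis, was at 0 in every control and in mutants 3387 and 3487, and at 1.72 and 3.01 BPM in mutants 3382 and 3489. Slc7a5 (LAT1), the carrier of large neutral amino acids, had 0.242, 0.331, 0.535 and 0.250 BPM in controls and 3.01, 0.288, 0 and 3.92 in mutants. Both were too low for the filter. Tested without it, Slc7a11 had an unadjusted p of 0.0524 (adjusted 0.772) and Slc7a5 an adjusted p of 0.813 by limma.

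Mutants 3382 and 3489 also stood above the other mutants for many further members, among them Slc38a10, Slc43a2, Slc7a7 and Slc6a6. Slc7a13 and Slc6a13 did not show this split. For Slc7a4 and Slc7a6 mutants 3382 and 3489 exceeded every control, as they did for some carriers shown here. The carriers shown are therefore examples of a wider split between the mutant libraries. Slc38a2 (SNAT2), a sodium-coupled carrier of neutral amino acids that cells raise when these are scarce, had 23.3, 26.9, 50.6 and 32.6 BPM in controls and 66.0, 31.4, 21.3 and 101 in mutants. Mutants 3382 and 3489 exceeded every control, while the other mutants lay within or below the control range (log2 fold change 0.52, adjusted p = 0.868). After median scaling every mutant lay above every control, a pattern of 2 members (with Slc7a12) and of 2.8% of all tested genes, with a log2 fold change of 0.73 (adjusted p = 0.347). The cationic carrier Slc7a2 had 2.28, 0, 1.80 and 2.95 BPM in controls and 15.5, 2.25, 0 and 3.79 in mutants. Its log2 fold change was 0.71 (limma adjusted p = 0.891). Slc7a2 is shown here outside the rule for members given with every library's value. Mutants 3382 and 3489 were the mutants of lower small RNA share, and after median scaling Slc7a2 was 11.4, 3.12, 0 and 2.93 in mutants, so that 3387 exceeded 3489, while Slc7a5, Slc7a11 and Slc38a2 were still highest in 3382 and 3489. Summed levels of 19 leukocyte markers were 185 to 369 BPM in controls and 2225, 405, 241 and 1149 in mutants 3382, 3387, 3487 and 3489. Summed levels of 15 tubular injury genes were 722 to 1143 BPM in controls and 4277, 1836, 769 and 3058 in those mutants. Of the injury sum in controls 61.0% was Spp1, and without it the sum was 321 to 455 BPM in controls and 1576, 884, 450.3 and 1399 in mutants. In the injury list 2 genes were called higher, and in the leukocyte list none by limma. After median scaling 4 injury genes (Havcr1, Vcam1, Timp1 and C3) and 2 leukocyte markers were called higher and none lower. Of all tested genes 0.398% were then called higher. The 2 leukocyte markers were Lyz2 (limma adjusted p = 0.0119) and Cd14 (0.0198). Lyz2 was also called with small RNA genes left out of the totals, with array weights and without mutants 3387 and 3487. Havcr1 (KIM-1) had 33.1, 79.6, 6.50 and 88.6 BPM in controls and 375, 481, 260.1 and 624 in mutants, so it was raised in all 4 mutants (log2 fold change 3.49, adjusted p = 0.0103). Timp1 was at 0 in 3 controls and 0.237 BPM in the other one, and at 12.02, 4.73, 2.66 and 9.17 in mutants (adjusted p = 0.0184). Both calls were lost without the filter on low values (adjusted p = 0.166 and 0.0632), that of Havcr1 without mutant 3387 (0.0666), and that of Timp1 without control 3401 (0.0776) or 3587 (0.0958). No marker of either list was at 0 in all libraries, 13 of 14 tested leukocyte markers and 13 of 14 tested injury genes had a positive fold change, and their part in the carriers' values was not tested.

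**Figure D4:**
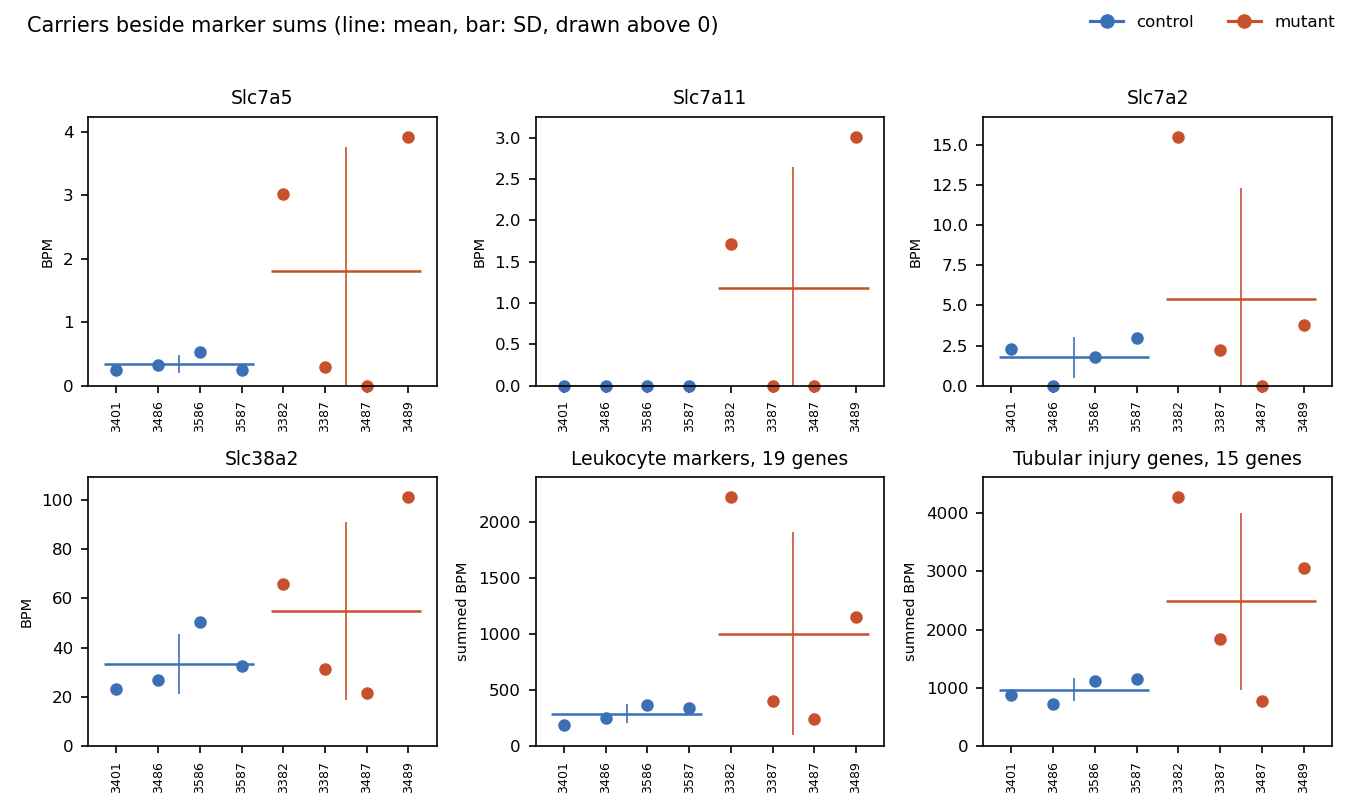
BPM per library of Slc7a5, Slc7a11, Slc7a2 and Slc38a2 beside the summed BPM of 19 leukocyte markers and 15 tubular injury genes, with group means and SD. The carriers are examples, as many other members also had mutants 3382 and 3489 above the other mutants. On the authors' scaling mutants 3382 and 3489, which had the lower small RNA shares, hold the highest values in all 6 panels, for example 3.01 and 3.92 BPM of Slc7a5, but after median scaling Slc7a2 was higher in mutant 3387 than in 3489.

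Cationic carriers were 5, of which 3 were tested and none called. Slc7a4, a relative of the arginine carriers, had 4.53, 3.36, 3.18 and 1.43 BPM in controls and 14.4, 6.85, 1.55 and 5.87 in mutants. Mutant 3487 lay within the control range (log2 fold change 0.78, SE 0.53, adjusted p = 0.857). The arginine carrier Slc7a1 averaged 4.67 ± 3.23 and 5.09 ± 5.15 BPM. Of the 6 other Slc1 members 4 were tested and none was called. Slc1a4 (ASCT1), a carrier of alanine, serine and cysteine, had 15.1, 12.5, 30.1 and 16.9 BPM in controls and 10.2, 3.83, 4.44 and 28.8 in mutants. Its log2 fold change was -0.95 (SE 0.52, adjusted p = 0.828), or -0.76 after median scaling and -0.03 without mutants 3387 and 3487, and mutant 3489 was nearly as high as the highest control. The glutamate carrier Slc1a2 (GLT-1) had 1.36, 3.08, 4.75 and 4.93 BPM in controls and 3.21, 0.838, 0 and 3.3 in mutants (log2 fold change -0.83, adjusted p = 0.857, and -0.0014 without mutants 3387 and 3487).

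In the Slc6 group for GABA, betaine, taurine and creatine, 4 of 6 members were tested and none was called. Slc6a13 (GAT2), a carrier of GABA and taurine, had 41.4, 25.3, 50.6 and 44.8 BPM in controls and 19.002, 31.5, 20.1 and 28.4 in mutants. Control 3486 was the sole control within the range of the mutants (log2 fold change -0.68, SE 0.36, adjusted p = 0.819, and -0.45 after median scaling). The taurine carrier Slc6a6, the most abundant of the group per kb, averaged 173 ± 108 and 186 ± 138 BPM with a log2 fold change of 0.02. Of 9 further Slc6 members, for glycine, proline, neutral amino acids and monoamines, 4 were tested, with fold changes from -0.50 to 0.27 on the log2 scale and none called.

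Among 10 other Slc38 members 7 were tested and none was called, with log2 fold changes from -0.75 to 0.52. Slc38a7, a glutamine carrier of the lysosome, had 11.7, 9.02, 24.6 and 10.7 BPM in controls and 10.9, 4.75, 4.46 and 11.9 in mutants, with overlap (log2 fold change -0.75, adjusted p = 0.847). After median scaling every mutant was below every control, by a small margin, which 2.54% of all tested genes showed (log2 fold change -0.55, adjusted p = 0.589). The 2 tested members of Slc36, Slc36a1 and Slc36a4, had log2 fold changes of -0.37 and 0.09, and Slc43a3 of -0.33. Over all 41 tested members the median log2 fold change was -0.33 and 65.9% were negative, and after median scaling these were -0.12 and 58.5%.

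**Figure D5:**
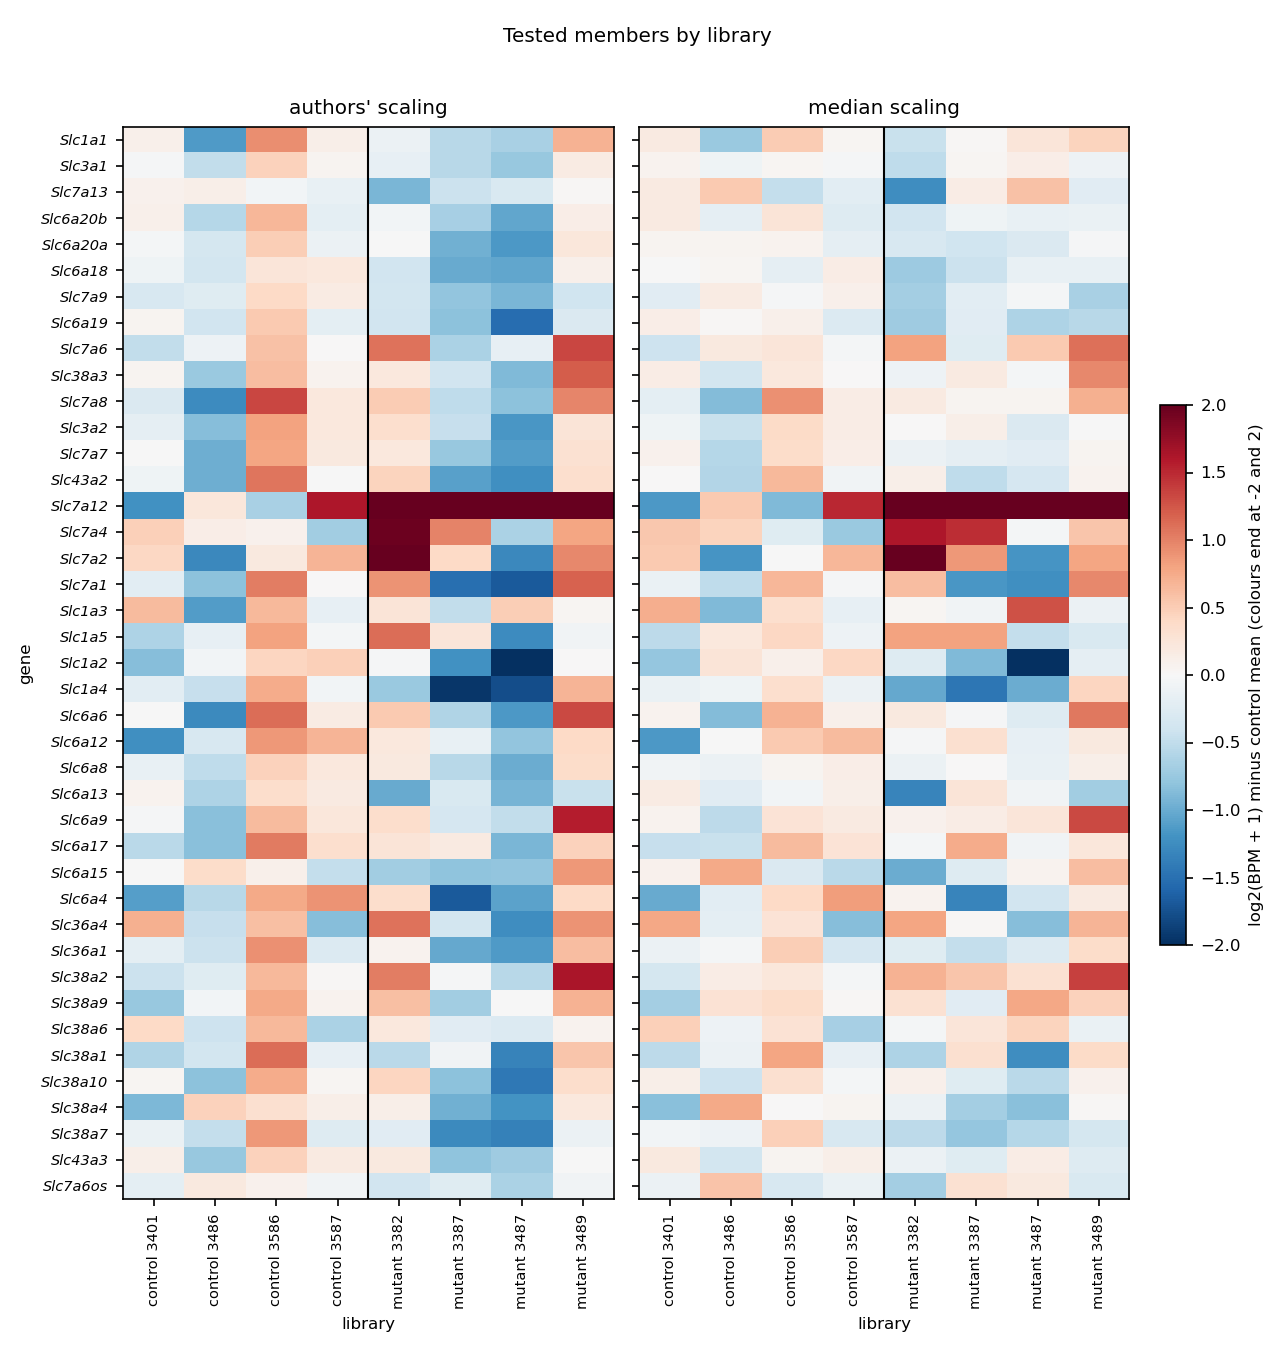
Log2(BPM + 1) of the 41 tested members in each of the 8 libraries, minus the control mean of the same member, on the authors' scaling and after median scaling, with colours ending at -2 and 2. The Slc7a12 row reaches the end of the scale in all 4 mutants under both scalings.

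Other genes of amino acid handling were counted from lists. Of 13 tested partners and further carriers none was called, and 9 had negative fold changes (median -0.36, or -0.13 after median scaling). The scaffold Pdzk1 was at -0.65 (adjusted p = 0.806). Among 19 tested genes of the gamma-glutamyl cycle and brush border peptidases none was called and 16 were negative (median -0.46, or -0.24 after median scaling). Of all tested genes 71.5% were negative, with a median of -0.23, or -0.03 after median scaling. Ggct, which forms 5-oxoproline from gamma-glutamyl amino acids, had 28.3, 17.0, 20.6 and 22.4 BPM in controls and 6.89, 6.14, 8.93 and 6.33 in mutants. All mutants lay below all controls, with a log2 fold change of -1.51 that did not pass the test (adjusted p = 0.180). With array weights Ggct was called lower (log2 fold change -1.70, adjusted p = 0.0278), the single call of that list under any alternative. The peptidase meprin beta, Mep1b, was at -0.74 (adjusted p = 0.677).

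The response to amino acid shortage through Atf4 had 24 tested genes, with 10 positive, 14 negative and none called. Their median was -0.06, or 0.12 after median scaling. Phgdh, the entry enzyme of serine synthesis, had 16.1, 8.60, 11.1 and 11.7 BPM in controls and 45.0, 42.2, 18.0 and 16.2 in mutants (log2 fold change 1.17, adjusted p = 0.568). The groups nearly touched, with mutant 3489 just above control 3401. Cth, which makes cysteine from cystathionine, had 198, 178, 198 and 201 BPM in controls and 120.4, 109.6, 96.5 and 142 in mutants (log2 fold change -0.73, adjusted p = 0.641), all mutants lying below all controls. Of 27 genes of amino acid sensing by mTORC1, 25 were negative with a median of -0.22. Of 13 genes of glutamine and ammonia handling 12 were negative with a median of -0.27. Both medians were close to the -0.23 of all genes, of which 71.5% were negative, and no gene of either list was called. After median scaling the medians were -0.02 and -0.05, beside -0.03 for all tested genes. The smallest p in these lists belonged to the lysosomal scaffold subunits Lamtor2 (log2 fold change -0.79) and Lamtor4 (-0.78), the ammonia channel Rhbg (-0.57) and the sodium-proton exchanger Slc9a3 (-0.63).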

How the data were processed

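RNA of 4 control and 4 mutant kidneys was measured from ribosomal RNA-depleted total RNA with an Ion library kit, per the labels' protocols. The authors deposited 1 table of a coverage signal for 23219 genes in 8 libraries, with a ratio of group means and an unadjusted p-value of the authors. No source states the unit, and it was read from the values. Each value is a whole multiple of the lowest value of its library, and 0.0435% of positive values lay at 1 to 19 steps, so steps were taken as bases plus 1. The added base was removed and the rest divided by the library total to give BPM. Read lengths are unknown, so neither counting intervals nor floors could be computed. The deposited signal is not divided by gene length, and levels per kb use the union of exons in GENCODE M21. Per the submitters' processing notes, bedtools and mm10 were used, while for aligner, annotation and strand the entry is: not given in the sources used here.

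Genes with at least 1 BPM in 4 libraries entered a 2-sided limma test (version 3.58.1, R 4.3.3) of log2(BPM + 1), fitted with its trend option and adjusted by Benjamini-Hochberg over 13054 genes. On this scale the change of a weakly covered gene is understated. The script was tested on simulated data. Log2 ratios of partners and the log2(BPM + 1) of Slc7a12 were compared by exact permutation over libraries. Alternatives were no filter, a filter of 5 BPM, a pseudocount of 0.1, median scaling, small RNA genes left out of the totals, array weights, the 2 libraries of highest small RNA share left out, and each library left out. Members named with every library's value were the called ones, the 12 of smallest p, the heavy chains with their light chains, chosen brush border carriers and the 3 of highest level. Slc7a2 was given in the same way outside this rule. From each list of other genes the called ones or else the 2 of smallest p were named, and some genes the rule takes are not reported here. The members, the rule and the lists were chosen with earlier results of these data known. Shared sequence was counted over 50-base stretches of exons.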

Additional observations from a re-analysis of the deposited data

How the results depend on the processing

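Under all 15 alternatives Slc7a12 was the 1 member called higher, with log2 fold changes from 4.27 to 5.21 and limma adjusted p from 1.01e-05 to 0.0171, and no member was called lower. Leaving out each library in turn gave 1 called higher and 0 lower each time, and the median log2 fold change of the members ranged from -0.44 to -0.02. Without the 2 libraries of highest small RNA share (mutants 3387 and 3487) this median was 0.29, beside 0.23 for all genes, with 0.344% of genes called higher and 0.0547% lower. The number of all genes called ranged from 4 to 73 over the alternatives. Directions that turned belonged to members that passed no test. Slc1a1 was at 0.069 after median scaling and at 0.13 with small RNA genes left out of the totals, where Slc3a2 was at 0.022. Without those 2 libraries Slc1a1 was at 0.29, Slc3a2 at 0.30, Slc6a20a at 0.11, Slc6a20b at 0.0383 and Slc7a7 at 0.26, and the Y-linked Eif2s3y at 0.0076. With single libraries left out, Slc7a8 ranged from -0.38 to 0.48, Slc1a1 from -0.53 to 0.16 and Slc3a2 from -0.54 to 0.043. For these the cause was not tested. Array weights gave a convergence warning. No paired analysis was possible because the labels used here do not state which controls and mutants belong together. Depth of 164 to 468 megabases limits what can be said of the 21 members below the filter.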
